A study of Homo sapiens with 4 samples.

Results

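SOX1, SOX2 and SOX3 (the SOX B1 group) and SOX4, SOX11 and SOX12 (the SOX C group) are 6 of the 20 SOX transcription factor genes counted here. They were chosen by name, and an m6A region was given to a gene when the transcript annotated at the region's centre was one of its own, when it was the gene with the nearest start site, or when the region overlapped its gene body on hg38. By these criteria 5 of the 9900 deposited regions belonged to the members, and 4 of the 6 members had at least 1. The RNA modification m6A, adenosine that carries a methyl group on N6, had been mapped by antibody pull-down in wild-type (WT) H1, an established human embryonic stem cell line, with 2 pull-down (IP) and 2 input libraries of total RNA. Both groups come from this 1 line and genotype, and the labels name no agent beyond the m6A antibody. The name of the deposited peak set calls the cells primed. The labels do not say that replicates came from separate cultures. The deposited intervals form 1 intersected peak set of positions without heights or values per library, so depth is unknown, no replicate error can be set beside a value, and identity markers of the cells cannot be checked from it. RNA levels were not analysed here, so the lack of a region does not mean a lack of m6A.

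SOX proteins bind the minor groove of DNA through an HMG box and bend it. The SOX B1 proteins are activators of closely related sequence: SOX2 pairs with OCT4 on enhancers of pluripotent cells, and SOX1, SOX2 and SOX3 together maintain neural progenitors. The SOX C proteins act later, in differentiating neurons and in mesenchymal tissues, where SOX4 and SOX11 have overlapping roles and SOX12 is the weakest activator in mouse. Genes of both groups lack introns, so a region over the gene body lies over the transcribed sequence. On messenger RNA, m6A is written mainly by the METTL3 and METTL14 complex, is found mostly in long exons and around stop codons, and is bound by YTH and IGF2BP proteins, which alter the stability of the RNA.

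The regions of SOX2 and SOX4 began almost at the start of the gene, each at base 12, counting the first transcribed base as 1. The sequences below are shown because they hold that edge. Each runs 5′ to 3′ on the plus strand, from 60 bases before the RefSeq start site of GRCh38.p14 to 30 bases after it, and capitals mark the 19 bases that lie inside the m6A region. The SOX2 stretch is chr3:181711865-181711954 and the SOX4 stretch is chr6:21593691-21593780.
SOX2: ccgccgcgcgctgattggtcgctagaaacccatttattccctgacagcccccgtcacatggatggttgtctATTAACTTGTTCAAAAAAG
SOX4: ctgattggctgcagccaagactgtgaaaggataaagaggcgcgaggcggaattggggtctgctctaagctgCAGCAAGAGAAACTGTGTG

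Among the SOX B1 genes, SOX2 held 1 region, and SOX1 and SOX3 held none by any of the 3 criteria. SOX2 lies on chromosome 3, positions 181711925 to 181714436 (2512 bp). Its region ran from 181711936 to 181713534 (1599 bp), entirely inside the gene, and its centre was annotated to the coding exon, exon 1 of 1. It covered bases 12 to 1610 of the gene, 63.7% of the gene body, and left the last 902 bp (35.9%) without a region. At this width it stood near the middle of the whole set, with 4716 of the 9900 regions wider.

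SOX2 lies inside SOX2-OT, a long non-coding RNA gene of 685549 bp on the same strand. SOX2-OT overlapped only this 1 region, so the rest of that gene held none. The region therefore belongs to both genes by position, and reads of the 2 transcripts cannot be told apart there.

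SOX1, a factor of early neural ectoderm, lies on chromosome 13, positions 112067149 to 112071706 (4558 bp), inside the non-coding gene SOX1-OT of 135706 bp. Neither gene overlapped a region. The nearest one, 734 bp wide at the promoter of TUBGCP3, was 516775 bp away. SOX3, which is on the X chromosome (positions 140502985 to 140505069, 2085 bp, minus strand) and is required for pituitary development, had its nearest region 267899 bp away. SOX2 was as isolated as these, with 604528 bp to the nearest region outside the gene. In none of the 3 did a region lie just outside the gene body.

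All 3 SOX C genes held a region inside the gene. SOX4 lies on chromosome 6, positions 21593751 to 21598619 (4869 bp), and its region ran from 21593762 to 21597140. At 3379 bp it was the widest over a member. It covered bases 12 to 3390, 69.4% of the gene body and the largest share among the 6 genes, and left the last 1479 bp (30.4%). The centre was in the coding exon.

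SOX11 is the longest member, 9002 bp on chromosome 2, positions 5692384 to 5701385. Its region ran from 5692664 to 5694912 (2249 bp) and covered bases 281 to 2529, which is 25% of the gene body. The centre was again in the coding exon, and the last 6473 bp (71.9%) held no region. The nearest region outside the gene was 1211409 bp away.

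SOX12 lies on chromosome 20, positions 325552 to 330224 (4673 bp). Its region ran from 325834 to 328160 (2327 bp), covered bases 283 to 2609 or 49.8% of the gene body, and left the last 2064 bp (44.2%). It was the only member whose region centre was annotated to the 3' UTR. The annotated start site was 19 bp inside the boundary of the gene table, so that the edge was 263 bp from that start site and 282 bp from the boundary. The regions of SOX11 and SOX12 thus opened at almost the same distance into the gene (280 and 282 bp), as those of SOX2 and SOX4 did (11 bp each).

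**Figure D1:**
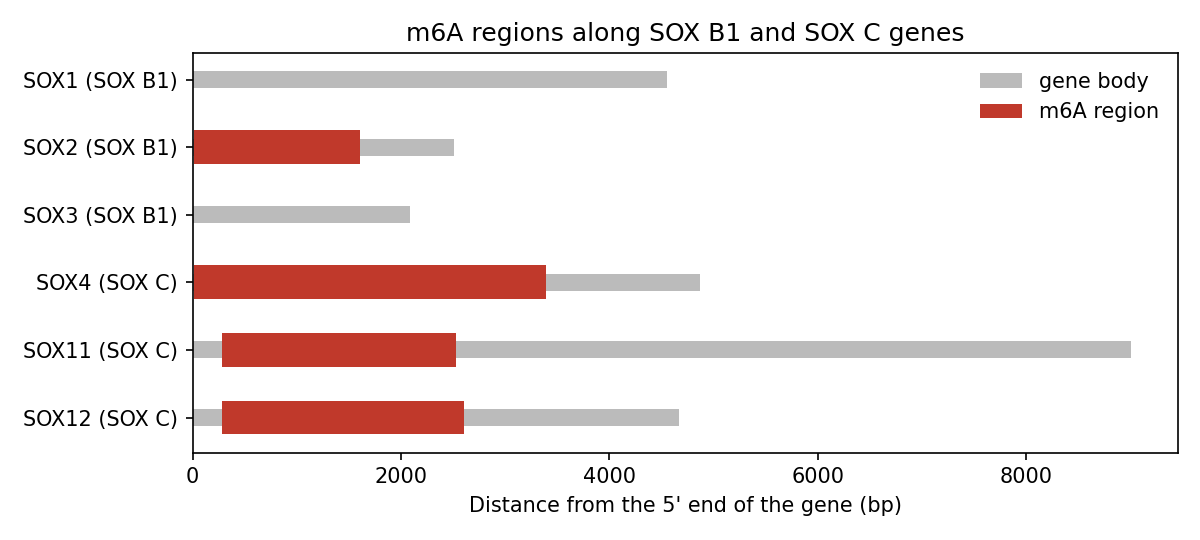
m6A regions (red) along the 6 gene bodies (grey), in bp from the 5' end of each gene, SOX B1 above SOX C. The regions of SOX2 and SOX4 begin 11 bp and those of SOX11 and SOX12 280 and 282 bp into the gene, every one ends before the 3' end, and SOX1 and SOX3 have none.

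SOX4 had a second region by its nearest start site alone. It ran from 21603951 to 21616676 on chromosome 6 (12726 bp), 5331 bp beyond the 3' end of SOX4, and overlapped no gene of the RefSeq table. Its centre, 16562 bp from the SOX4 start site, was in an LTR12C element, a long terminal repeat of an endogenous retrovirus. Only 708 of the 9900 regions were wider. Whether this RNA is part of a SOX4 transcript was not tested. The other region near a member was that of ZCCHC3, in exon 1 of 1, which lay 26675 bp from SOX12. The other 4 members (SOX1, SOX2, SOX3 and SOX11) had no region within 100 kb outside the gene, as did 41.3% of the 20056 protein-coding genes.

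The count of members with a region was 4 of 6 by any of the 3 criteria (66.7%, 95% exact binomial interval 22.3 to 95.7%), against 36.1% of all protein-coding genes. Counting only regions centred in an exon of the gene, it was again 4 of 6, against 12.8% of all protein-coding genes. Among the 3924 protein-coding genes whose body is as long as those of the members (2085 to 9002 bp), the share was 9.99%. By this criterion genes with introns lose the regions centred in introns, while the intronless members can lose none that way. By overlap of the gene body the count was 4 of 6, against 30.2% of all protein-coding genes. A share over all single-exon genes was not computed. With 6 genes the interval is wide, it covers counting error only, and the members were chosen with earlier results of these data known, so no test was made. When regions up to 2 kb alone were counted, only SOX2 kept one, 1 of 6 against 26.1% of protein-coding genes, because those over SOX4, SOX11 and SOX12 are wider.

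The regions of the members lay toward the 5' end of the gene, as did most of those in other single-exon transcripts of protein-coding genes with bodies of the same length range (2085 to 9002 bp). Their centres were at 32.2% of the gene body in SOX2, 34.9% in SOX4, 15.6% in SOX11 and 30.9% in SOX12, all before the midpoint. In 88 other regions of that length range whose start site matched the gene boundary within 50 bp, the median centre was at 35.1% (quartiles 22.7 and 49.3%), and 66 of them (75%, interval 64.6 to 83.6%) were centred before the midpoint. The regions of the members ended at 64.1% (SOX2), 69.6% (SOX4), 28.1% (SOX11) and 55.8% (SOX12) of the gene body. Among the 88 others the median end was 61.9%, and 2 reached the 3' end or went beyond it. The limit on length was added after seeing the data, because a single-exon transcript can belong to a gene whose other transcripts have introns: of 179 such regions of any length, 28 were in gene bodies over 20 kb, those of clustered protocadherins among them. Some genes within the limit may have introns too.

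**Figure D2:**
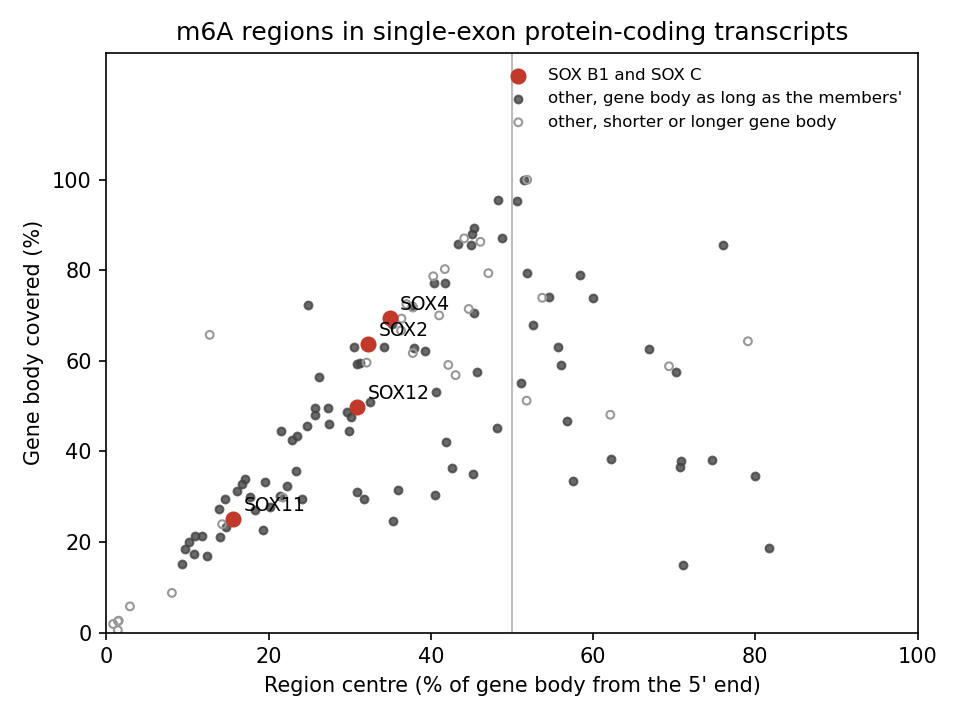
Place of each region in single-exon transcripts of protein-coding genes: the horizontal axis gives the region's centre in % of the gene body from the 5' end, the vertical axis the % of the gene body inside the region. The 4 member regions (red) lie left of the midpoint line and among the 88 others with gene bodies as long as those of the members (filled); open points, SOX14 among them, have shorter or longer bodies.

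An edge as near the start site as in SOX2 and SOX4 was found in a minority of the others. Of 109 regions in other single-exon transcripts in the length range whose own start site was the nearest, 17 (15.6%, interval 9.36 to 23.8%) opened 0 to 50 bp after it. Among these, RNF26 opened at 11 bp, as SOX2 and SOX4 did, and SEPHS2 and IRF2BP1 opened at 13 bp, so this opening was not particular to SOX genes. Another 9 (8.26%) opened before it, among them the region of FZD7, which was still wholly inside the gene body. The median offset was 281 bp (quartiles 54 and 646 bp), so the 280 bp of SOX11 and the 263 bp of SOX12 were within the middle range. Over gene bodies of any length the median offset was 200 bp (161 regions).

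In width, the 4 regions over members measured 1599, 3379, 2249 and 2327 bp for SOX2, SOX4, SOX11 and SOX12, against a median of 1596 bp in 115 other regions of single-exon transcripts in the length range. The SOX4 region was wider than 110 of these, the SOX12 region than 97, the SOX11 region than 94 and the SOX2 region than 58. The share of the gene body covered had a median of 44.5% in the 115 (quartiles 30.7 and 63.0%). SOX4 and SOX2 were above the upper quartile, SOX12 was between the median and the upper quartile, and SOX11 was below the lower one. Against the 179 regions of any length (quartiles 19.8 and 65.5%), SOX2 and SOX11 were inside the quartiles.

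The consensus of m6A sites was looked for only in the first 50 transcribed bases, on the transcribed strand. The 6 words searched were GGAC and AGAC, each followed by A, C or T, and 2 of them can share a base where one follows another. The RefSeq promoter table held 5 members, all but SOX11. None of the words was in the 50 bases of SOX2, SOX4, SOX12 or SOX1, and SOX3 had AGAC followed by T once. Of 35116 such stretches in the table, 25.8% held at least 1 of the words. A word is a description of the letters and not a methylated site. The searched bases reached into a region only in SOX2 and SOX4, and the rest of those regions was not searched. The region of SOX12 opens at base 283, so none of it was searched.

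Outside SOX B1 and SOX C, 5 of the other 14 SOX genes had a region (35.7%, interval 12.8 to 64.9%), near the 36.1% of all protein-coding genes, and 3 had one centred in an exon (21.4%, 4.66 to 50.8%), against 12.8% of all protein-coding genes. The interval of the members overlaps these, and the difference was not tested. Both SOX B2 genes, which encode repressors that oppose SOX B1 proteins and also lack introns, had a region. SOX14 held 1 of 1194 bp over bases 256 to 1449, 59.1% of its 2020 bp, in exon 1 of 1. Its opening 255 bp into the gene was close to the values of SOX11 and SOX12. The region of SOX21 was 3129 bp wide and crossed the 5' end. It covered 55.8% of SOX21 and ran 1496 bp beyond its 5' end, across the 170 bp that lie between the genes and over 1326 bp of SOX21-AS1, a non-coding gene on the other strand. The centre lay inside SOX21, 68 bp after its start site, but was annotated to the promoter of SOX21-AS1. SOX21 was therefore not among the 3 genes counted as exon-centred. The strand of the RNA in it is not known, because all intervals carry the same strand sign.

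The 3 other SOX genes with a region have introns, and smaller parts of them were covered. SOX8, a SOX E factor of neural crest and glia, held 1249 bp in the 3' UTR of exon 3 of 3 (24.0% of the gene body). SOX7, an endothelial SOX F factor, held 763 bp in exon 2 of 2 (11.3%). SOX13, of the SOX D group, held 1322 bp in intron 12 of 13 (2.42%). SOX5 and SOX6 of SOX D, SOX9 and SOX10 of SOX E, SOX17 and SOX18 of SOX F, SOX15, SOX30 and SRY had none. By any of the 3 criteria, SOX D, E and F each had a region in 1 of 3 genes, as SOX B1 did (interval 0.84 to 90.6%). SOX C had 3 of 3 (29.2 to 100%) and SOX B2 2 of 2 (15.8 to 100%), against 36.1% of all protein-coding genes. The intervals overlap, so groups this small cannot be told apart. Counting exon-centred regions only, SOX D had 0 of 3 and SOX B2 1 of 2, against 12.8% of all protein-coding genes.

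**Figure D3:**
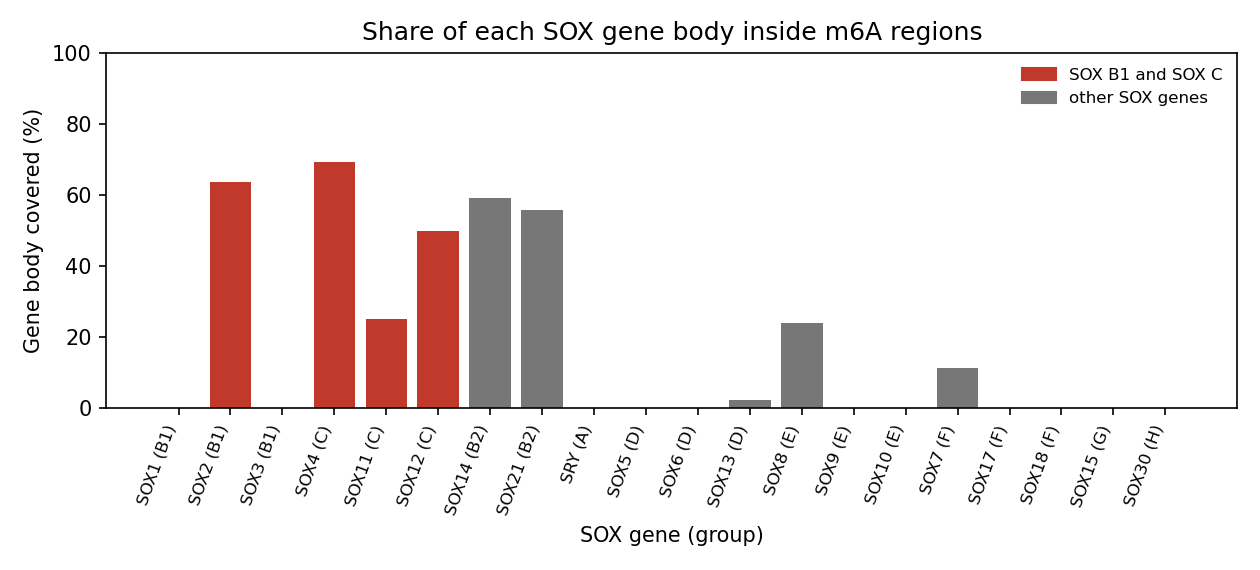
Share of each SOX gene body (%) inside m6A regions, SOX B1 and SOX C in red and the other SOX genes in grey, with the group letter in brackets. Shares of 49.8 to 69.4% are found in SOX2, SOX4, SOX12, SOX14 and SOX21, and 11 of the 20 genes are at 0.

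Of 20 pluripotency partners and targets of SOX2, 12 had a region by any of the criteria (60%, against 36.1% of all protein-coding genes). An exon-centred region was held by 6 of the 20 (30%, interval 11.9 to 54.3%), against 12.8% of all protein-coding genes. SALL4, which keeps stem cells undifferentiated, had 2 such regions, in exons 2 and 4 of 4. FGF4, a classic enhancer target of SOX2 with OCT4, had 1 of 1655 bp in the 3' UTR, and OTX2, LEFTY1 and ZFP42, also among the 6, had 1 each. The regions of PRDM14, TFCP2L1 and UTF1 did not overlap these genes and were theirs by the nearest start site alone. NANOG shared 534 bp with a region of 100260 bp. The FOXD3 region (2021 bp) lay wholly inside the gene. Its centre was annotated to the promoter of another transcript, so it was not counted as exon-centred. LIN28B, an RNA-binding protein that blocks let-7 processing, had 5 regions, none centred in an exon. POU5F1, which encodes OCT4, KLF4, SALL1, ESRRB, ZIC2, LIN28A, LEFTY2 and DPPA4 had no region by any of the criteria.

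Neural partners and targets of SOX B1 held an exon-centred region in 6 of 18 cases (33.3%, interval 13.3 to 59.0%, against 12.8% of all protein-coding genes). By any of the criteria the count was the same 6 of 18, near the background of 36.1%. The region of POU3F1, a POU-domain partner that lacks introns, was 1412 bp wide and centred in exon 1 of 1. Both GLI2 and GLI3, transcription factors of Hedgehog signalling, had theirs in the last exon, with 3517 and 2102 bp. NOTCH1, NES (nestin) and PROX1 were the others. PAX6, HES1, HES5, NEUROG1, NEUROG2, NEUROD1, FABP7, ZEB2, POU3F2, POU3F3 and POU3F4 were among those with none. Of 10 neuronal targets and partners of SOX C, 1 (PROX1, 10.0%, interval 0.253 to 44.5%) held an exon-centred region, close to the background of 12.8%. By any of the criteria 4 of 10 did (40.0% against 36.1%), with MAP2, which encodes a neuronal microtubule-associated protein, RBFOX3 and NCAM1. The 4 regions of MAP2 were intergenic, did not overlap the gene and were its own by the nearest start site alone. Those of RBFOX3 and NCAM1 were centred in introns. TUBB3, the neuronal tubulin gene that SOX4 and SOX11 activate, DCX, STMN2, TEAD2, TUBB2B and NEUROD1 had no region. PROX1 stands in both neural lists.

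Of 20 regulators listed as single-exon genes, 7 had a region by any of the criteria (35%, near the 36.1% of all genes). An exon-centred region was held by 5 (25%, interval 8.66 to 49.1%), against 12.8% of all protein-coding genes, most of which can also have regions centred in introns. The 5 were JUN (2220 bp), JUND (928 bp) and IER5 (1308 bp), each in exon 1 of 1, POU3F1 and IER2. The IER2 region of 2140 bp was annotated to exon 2 of 2, so that transcript is not single-exon. The JUN region, over the gene of an AP-1 subunit, was close in width to those of SOX11 and SOX12. CEBPB and FOXD3 each had a region wholly inside the gene whose centre was annotated to the promoter of another transcript, so neither was counted as exon-centred. JUNB, CEBPA, CEBPD, FOXC1, FOXC2, FOXD1, FOXD2, FOXQ1, FOXE1, FOXL2, POU3F2, POU3F3 and POU3F4 had none.

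Likeness to each member was measured over 174 protein-coding genes outside the family with a region in a single-exon transcript, whatever their length, as the distance in log2 gene body length and in the share of the gene body covered, in this 1 peak set. C6orf47 was nearest to SOX2, with 63.2% of 2481 bp covered and an opening 65 bp after the start site. PURB, which encodes a single-stranded nucleic acid-binding protein, was nearest to SOX11, with 23.9% of 9232 bp covered and an opening at 212 bp. MAP10, a microtubule-associated protein gene, was nearest to SOX12, with 48.2% of 4514 bp covered. Its region opened 898 bp after the annotated start site. That start site was more than 50 bp from the gene boundary, so the offset cannot be set beside that of SOX12. FZD7, a WNT receptor gene, was nearest to SOX4, with 63.5% of 4587 bp covered. Its region lay wholly inside the gene body but opened 696 bp before the annotated start site. That start site was likewise more than 50 bp from the gene boundary, so the offset cannot be set beside that of SOX4.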

How the data were processed

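The labels gave 2 IP and 2 input libraries of wild-type H1 cells. Per the submitters' processing notes, the genome of the authors was hg38 and the tools were HOMER, MACS2 2.2.7.1, bedtools 2.30.0, HISAT2 2.2.1, SAMtools 1.6 and Trim Galore 0.6.7, whose order is not stated. Settings and what was intersected were not stated in the labels or headers. All deposited values used were interval starts, ends and distances to a start site, in base pairs, other than any count or signal.

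Regions were assigned to genes of the RefSeq table of GRCh38.p14 with Python 3.11.15 and pandas 2.3.3. The assignment was first tried on made-up intervals with known overlaps. Strand came from the RefSeq promoter table or, for SOX11, SOX14 and SOX8, from the start site that the distance implied within 50 bp. Exact (Clopper-Pearson) intervals of 95% came from SciPy 1.17.1. A region was exon-centred when HOMER put its centre in an exon, UTRs and non-coding transcripts included, of the gene's own transcript.

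Named were the 6 members, all other SOX genes, list genes, neighbouring regions and, for each member with a region, the most similar gene with a region in a single-exon transcript. A few genes that this rule takes are not reported here. The members and lists were chosen with earlier results of these data known. No p-value was computed. Alternatives were other assignment criteria, width limits and merging of close regions, with, added after seeing the data, a limit on gene body length for the single-exon comparison.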

Additional observations from a re-analysis of the deposited data

How the results depend on the processing

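The 4 members with a region were counted as 4 under 7 of the 8 alternatives: each of the 3 criteria alone, at least 50% of the region inside the gene body, exon-centred regions only, regions of 500 bases or more, and regions less than 1 kb apart merged. With regions up to 2 kb only, 1 member (SOX2) and 1 region were counted, and the covered share was 0% for SOX4, SOX11 and SOX12, since their regions are wider than this limit. The regions of the members numbered 5, or 4 where the one beyond SOX4 was not taken. The other SOX genes with a region numbered 3, in place of 5, by the nearest start site only and also by exon-centred regions only. Protein-coding genes with a region numbered 7241, and 2569 by exon-centred regions only. No paired analysis was possible because the deposited intervals carry no value per library, and for the same reason no replicate could be left out. Depth is unknown, so whether SOX1 and SOX3 lack a region for want of RNA or of m6A cannot be told apart. With the limit on gene body length, the median share covered in other single-exon transcripts was 44.5%, against 42.4% at any length, and the median centre was at 35.1%, against 36.7%.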

Other observations

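CASC15, a long non-coding RNA gene of 529408 bp that follows SOX4 on chromosome 6 (positions 21666413 to 22195820), overlapped 4 regions. All were centred in introns and in L1 elements, which are retrotransposons: L1PB1 in intron 4 of 11 (1190 bp), L1MA5 in intron 9 (1056 bp), L1PA2 in intron 10 (1386 bp) and L1MA5 again in intron 10 (1855 bp). The region over SOX4 itself was annotated to its exon, and the one just beyond it to an LTR12C element. A centre labelled by an exon carries no repeat label, so these labels cannot be compared for repeats. Among the nearest protein-coding genes on either side of the members, ZCCHC3 beside SOX12, CDKAL1 beside SOX4 and HAPSTR2 beside SOX3 overlapped a region. The other 9 did not. By overlap of the gene body, 30.2% of all protein-coding genes had a region, so these neighbours do not stand out.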
